A study of Homo sapiens with 32 samples.

Results

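Raltitrexed (RTX) was compared with no drug (NT) in the mismatch repair (MMR) proficient HCT116 cells through 4 U-DNA-Seq samples of the 32 of the series: both replicates of RTX_UGI_HCT116MMR and both of NT_UGI_HCT116MMR, taken by their labels. HCT116 is a human colorectal carcinoma line that lacks MMR, and the line used here carries an added chromosome 3 that restores it. All 4 samples came from cells transduced with UGI, a viral protein inhibitor of the uracil-DNA glycosylase UNG, and sorted for EGFP, so that the controls also lacked UNG activity. The RTX cells were treated with 100 nM for 48 h. A ΔUNG protein without catalytic activity served as the sensor that binds uracil in fragmented DNA, and the bound DNA was sequenced next to input DNA. Each deposited file lists the regions in which the bound sample exceeded its input by more than a threshold, with a log2 value for each. The files hold no reads, so the depth is unknown, no interval from counting error could be given, and the identity of the line could not be checked from expression. The results describe an inhibited, transduced tumor line and not cells with normal uracil repair.

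Thymidylate synthase makes the DNA building block dTMP from dUMP with the help of a folate cofactor, and raltitrexed, a folate analog that cells load with polyglutamate, blocks this enzyme. With less dTTP and more dUTP, polymerases place uracil in newly made DNA opposite adenine. UNG removes such uracil as the opening step of base excision repair, and with UGI present it stays in the DNA long enough to be pulled down. MMR recognizes mispaired bases after replication and has the new strand repaired.

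The sequence windows below come from extreme regions and do not stand for all regions. Over whole libraries, region bases had a GC content of 43.0% and 44.4% in RTX and 33.7% and 33.8% in NT. The windows were read from the GRCh38 plus strand, 200 bases each. Each lies at the place whose GC content was nearest to that of the whole region, and CpG dinucleotides are in capitals. The longest and the highest region found in both replicates of each group were taken, with reciprocal overlap of at least 50%, and in addition the longest one of NT that lay in one of the longest runs of bins that were lower after RTX.
RTX_UGI_HCT116MMR, longest region, chr2:200724401-200724600: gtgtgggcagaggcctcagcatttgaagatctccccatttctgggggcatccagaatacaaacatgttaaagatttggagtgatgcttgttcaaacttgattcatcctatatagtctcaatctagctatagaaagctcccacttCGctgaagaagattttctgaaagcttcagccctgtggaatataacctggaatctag
RTX_UGI_HCT116MMR, highest region, chr1:228526901-228527100: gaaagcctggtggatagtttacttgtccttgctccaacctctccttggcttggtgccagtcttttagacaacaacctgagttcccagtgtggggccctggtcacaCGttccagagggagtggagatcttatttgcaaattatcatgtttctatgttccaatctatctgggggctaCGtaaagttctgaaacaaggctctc
NT_UGI_HCT116MMR, longest region, chr5:135790801-135791000: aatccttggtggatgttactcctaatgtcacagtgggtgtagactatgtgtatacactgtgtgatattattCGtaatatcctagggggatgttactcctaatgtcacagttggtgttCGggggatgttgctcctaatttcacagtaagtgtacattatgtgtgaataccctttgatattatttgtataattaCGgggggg
NT_UGI_HCT116MMR, highest region, chr4:51106001-51106200: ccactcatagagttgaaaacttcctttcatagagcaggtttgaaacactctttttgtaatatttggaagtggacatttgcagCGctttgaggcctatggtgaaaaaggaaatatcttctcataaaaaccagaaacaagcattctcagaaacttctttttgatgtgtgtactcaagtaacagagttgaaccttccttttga
NT_UGI_HCT116MMR, longest region in a run of lower bins, chr5:27923901-27924100: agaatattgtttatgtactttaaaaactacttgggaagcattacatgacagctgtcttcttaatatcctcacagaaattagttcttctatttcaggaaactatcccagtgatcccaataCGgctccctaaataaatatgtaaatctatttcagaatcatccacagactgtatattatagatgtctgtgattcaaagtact
The longest RTX region lay on chromosome 2 over AOX1, BZW1 and CLK1, had a length of 199500 bp in replicate 1 and 259200 bp in replicate 2, and had a GC content of 42.3%. The highest RTX region lay on chromosome 1 at RNF187, with log2 values of 0.65 and 0.62 and a GC content of 47.4%. It was repetitive as well, with 41.2% of bases identical to the base 35 bp further on, against 25.3% from composition. No base of it was in a region of either NT library. The longest NT region lay in SLC25A48 on chromosome 5, was 43300 and 44100 bp long, and no base of it was in an RTX region. In it, 40.6% of its bases were identical to the base 76 bp further on, where its base composition alone gives 26.04%. In the highest NT region, on chromosome 4, 43.99% of bases were identical to the base 171 bp further on, against 25.95% from composition, and the log2 values were 1.89 and 2.20. A period of that size is the known length of the alpha satellite unit of human centromeres. The paper describes centromeres as repetitive and poorly mappable, and the part of mapping in this value was not tested. The region within a lower run on chromosome 5 had a GC content of 32.7% and no protein-coding gene. It had 29.9% of bases identical at 10 bp against 28.0% from composition, and the longest RTX region 27.8% at 10 bp against 25.6%. Each spacing was the one with the most identical bases among many tried, so the share from composition is a low baseline.

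RTX libraries held many long regions and NT libraries few. The median region was alike at the deposited thresholds, which differ between libraries, but at a common log2 limit of 0.32 the log2 difference in median length was 1.85. The median length was 1200 and 1200 bp in RTX replicates 1 and 2, and 1300 and 1200 bp in NT replicates 1 and 2. The 99th percentile was 38300 and 55700 bp in RTX against 14400 and 14039 bp in NT. Regions of at least 50 kb numbered 693 and 1289 in RTX and 1 and 2 in NT, and held 9.81% and 20.4% of RTX region bases. Regions of at least 10 kb held 54.3% and 63.5% of region bases in RTX and 17.9% and 17.02% in NT, so that the groups did not overlap. The length where regions at least as long hold 50% of the bases, the N50, was 11300 and 15900 bp in RTX and 5100 and 5100 bp in NT, a log2 difference of 1.39. The RTX replicates also differed from each other, with more and longer regions of at least 50 kb in replicate 2. With 2 samples against 2, the smallest two-sided exact permutation p is 0.333, so none of these values carries a test.

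**Figure D1:**
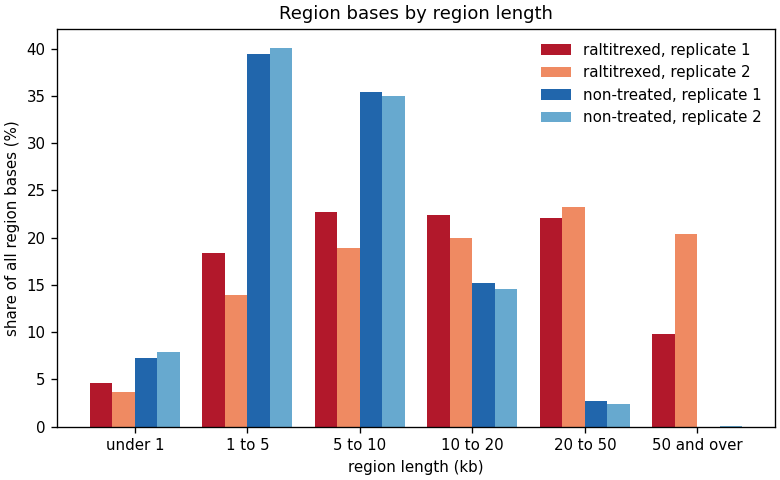
Share of all region bases (percent, vertical axis) held by regions of each length class (kb, horizontal axis), 1 bar for each of the 4 libraries. Regions of 50 kb and over hold 9.81% and 20.4% of bases in the raltitrexed libraries and nearly none in the non-treated ones.

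The mean height of the regions overlapped between the groups. Within classes of length under 50 kb it was higher in NT, whose files also had the higher thresholds. Weighted by length, the mean log2 value was 0.427 and 0.402 in RTX and 0.416 and 0.443 in NT, and the groups overlapped. The lowest value in a file, set by the authors for each library, was 0.27 and 0.25 in RTX and 0.29 and 0.32 in NT. In every library the mean log2 value was higher in longer classes. It went from 0.289 under 1 kb to 0.538 at 50 kb and over in RTX replicate 1, and from 0.266 to 0.490 in RTX replicate 2. In each class under 50 kb both NT libraries were above both RTX libraries, as from 5 to 10 kb, with 0.451 and 0.477 in NT against 0.402 and 0.363 in RTX. At 50 kb and over, where NT had 1 and 2 regions, the groups overlapped. The classes were not compared at a common limit, so the part of the thresholds in them was not tested. Over all regions, the difference in mean log2 value was -0.015 as deposited and -0.000633 at a common log2 limit of 0.32. With the highest regions up to 300 Mb in each library it was 0.0326. Regions of a log2 value of at least 0.7 covered 0.493 and 0.760 Mb in NT, and 0.108 and 0 Mb in RTX.

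Few bases were in regions of both groups. Regions covered 18.02% and 18.3% of known bases in RTX and 11.1% and 11.4% in NT, a total that follows from the thresholds. Of NT replicate 1, 7.73% of bases were also in RTX replicate 1 and 4.66% in RTX replicate 2. For NT replicate 2 these shares were 8.21% and 4.76%. The Jaccard index, shared bases over bases in either library, was 0.517 between the RTX replicates and 0.391 between the NT replicates, and 0.0179 to 0.0328 over the 4 pairs of RTX with NT. Random placement of as many bases gives 0.0735 to 0.0754 for those 4 pairs, above each of them. Both RTX and no NT library covered 342 Mb, both NT and no RTX library covered 169.6 Mb, and all 4 covered 4.83 Mb.

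Those exclusive bases differed in composition. The GC content was 44.2% in bases covered by both RTX and no NT library, and 32.8% in bases covered by both NT and no RTX library, while the known genome has 40.9%. CpG dinucleotides, the main sites of DNA methylation, numbered 12.1 per kb in the former and 4.86 per kb in the latter. Protein-coding genes took up 57.2% of the former and 31.6% of the latter, and exons 9.24% and 1.87%. Of the transcription starts of protein-coding genes, 2708 lay in the former and 135 in the latter. These are 13.6% and 0.676% of all such starts, while the former bases make up 11.8% and the latter 5.83% of the known genome. The share of starts was thus near the share of the genome in the former and below it in the latter. Over whole libraries, region bases had a GC content of 43.0% and 44.4% in RTX and 33.7% and 33.8% in NT, a difference of 9.99 percentage points.

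Covered share followed the GC content of 100 kb bins in opposite directions in both groups. In bins with a GC content under 36%, 2.08% and 0.741% of bases were covered in RTX and 40.9% and 40.7% in NT. From 40 to 42% GC, RTX covered 21.3% and 19.4% and NT 3.03% and 3.22%. From 45 to 50% GC, RTX covered 35.8% and 42.4% and NT 0.493% and 0.512%. In the richest bins, of 50% GC and over, the RTX replicates differed most, with 33.5% and 48.5%, against 0.114% and 0.106% in NT. RTX replicate 1 thus levelled off in the richest bins and replicate 2 did not, while the NT replicates stayed close to each other in every class.

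**Figure D2:**
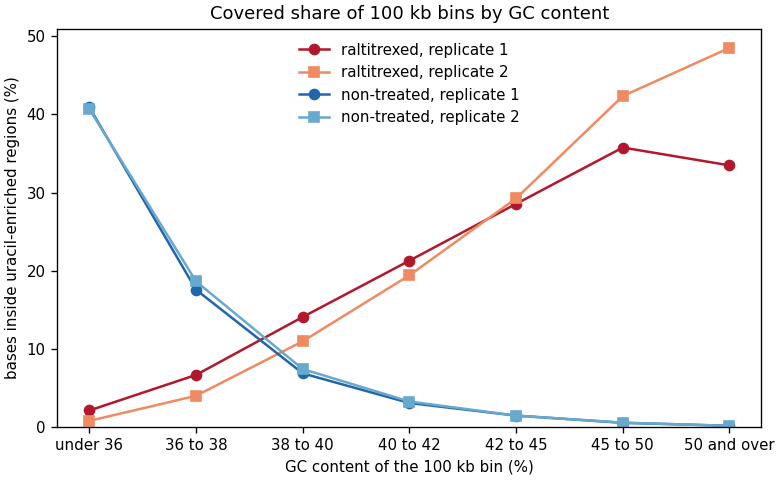
Bases inside regions (percent) in 100 kb bins grouped by GC content (percent), 1 line for each of the 4 libraries. Both non-treated lines fall from about 40.9% in the poorest bins to near 0, and the raltitrexed lines rise and part in the richest bins, at 33.5% and 48.5%.

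At matched GC content, bins with and without genes differed. Among bins of 38 to 40% GC, those with no protein-coding gene were covered to 4.37% and 2.73% in RTX, and those at least 50% genic to 20.6% and 16.8%. In NT the same bins had 5.99% and 6.60% without a gene and 7.17% and 7.64% with at least 50% of genic bases. Among bins of 42 to 45% GC, bins without a gene had 14.03% and 13.02% in RTX, and bins at least 50% genic had 31.1% and 32.6%. The RTX libraries thus covered gene-bearing bins more than gene-free bins, and RTX lay below NT in the gene-free bins of 38 to 40% GC. The part of other properties that go with genes was not tested.

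Limma, fitted to the arcsine square root of the covered share over all 27194 bins of 100 kb with a region in at least 1 library, called 8948 bins higher after RTX and 12024 lower at an adjusted p under 0.05. The higher calls are 32.9% and the lower calls 44.2% of the bins tested. Bins called higher had a median covered share of 56.2% in RTX and 0.05% in NT, a median GC content of 44.2%, and 10.01% of them held no protein-coding gene. Bins called lower had a median of 0% in RTX and 18.7% in NT, a median GC content of 37.0%, and 55.6% of them held no protein-coding gene. The sizes and the balance of the calls depend on the covered totals, which the thresholds set: with the highest regions up to 300 Mb in each library, 4834 bins were higher and 12989 lower, and 148 of the bins called higher were called the opposite way. The higher count was 411 without NT replicate 1 and 495 without NT replicate 2, and the lower count 3876 and 3525 without RTX replicate 1 or 2.

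Called bins lay in runs. The 8948 higher bins formed 1512 runs of adjacent bins, and the 257 runs of at least 1 Mb held 54.9% of them. The 12024 lower bins formed 2131 runs, and the 307 runs of at least 1 Mb held 62.5% of them. The longest higher run was 8.2 Mb on chromosome 1 (chr1:21100001-29300000, GRCh38), with 137 protein-coding genes, among them EIF4G3, a translation initiation factor, EPB41, a protein of the membrane skeleton, and the ephrin receptor gene EPHB2. It was covered to 66.1% and 81.2% in RTX and to 0.327% and 0.548% in NT. A run of 7.9 Mb on chromosome 9 (chr9:125900001-133800000) held RALGPS1, VAV2 and MED27 and was covered to 48.2% and 64.7% in RTX and 0.430% and 0.591% in NT. A run of 6 Mb on chromosome 1 (chr1:200200001-206200000) held NAV1, PPP1R12B and NFASC and was covered to 71.5% and 82.1% in RTX and 0.918% and 0.958% in NT. In all 3 runs the groups were far apart, and RTX replicate 2 was the higher one.

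The longest lower runs were poor in genes. The longest was 13.9 Mb on chromosome 13 (chr13:80300001-94200000), with 6 protein-coding genes, of which GPC5 and GPC6 encode glypicans and SLITRK5 a synaptic membrane protein. It was covered to 0.165% and 0.00144% in RTX and to 43.6% and 41.2% in NT. The next, 13.7 Mb on chromosome 5 (chr5:17700001-31400000), held the type II cadherin genes CDH18, CDH12 and CDH9 and was covered to 0.00438% and 0% in RTX and 42.4% and 39.9% in NT. The third, 12.6 Mb on chromosome 13 (chr13:60400001-73000000), held PCDH9, a protocadherin gene, the transcription factor gene DACH1 and KLHL1. It was covered to 0.402% and 0.0103% in RTX and 46.1% and 45.3% in NT. Their GC content was 35.2%, 35.3% and 34.8%, against 47.7%, 49.9% and 46.4% in the 3 longest higher runs.

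A few bins ran against the trend with GC content. Of 9632 bins with a GC content under 38%, 258 were called higher, and these were mostly genic, with a median of 87.2% of bases in protein-coding genes against 0% over all such bins. The one with the largest difference, on chromosome 4 (chr4:74400001-74500000), holds AREG, the gene of the EGFR ligand amphiregulin. It was covered to 99.5% and 96.3% in RTX and to 7.8% and 17.8% in NT. A bin within LRPPRC, a gene of mitochondrial RNA handling, on chromosome 2 (chr2:43900001-44000000) had 91.6% and 96.9% in RTX and 5.5% and 20.1% in NT. Of the bins with a GC content of at least 45%, 121 were called lower, with a median covered share of 3.65% in NT. These bins were named after their values were seen.

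In covered share by chromosome, RTX was higher on 17 of 23 and lower on 5, with no overlap, and on chromosome 5 the groups overlapped. These shares carry the totals that the thresholds set. The largest rise was on chromosome 17, at 29.9% and 37.0% in RTX against 3.53% and 3.60% in NT. Chromosome 22 had 22.9% and 30.0% against 1.42% and 1.59%, and chromosome 1 had 27.3% and 28.5% against 9.23% and 9.29%. RTX was lower on chromosomes 13, 4, 18, 21 and 8. Chromosome 13 had 9.64% and 8.34% in RTX and 20.2% and 20.1% in NT, and chromosome 4 had 12.5% and 10.2% against 19.9% and 20.3%. Chromosome 3, the one added to these cells, had 20.4% and 19.6% in RTX and 14.1% and 14.5% in NT. Relative to the share of the whole genome, its ratios were 1.13 and 1.07 in RTX and 1.28 and 1.28 in NT, so lower in RTX. On that scale chromosome 5 had 0.839 and 0.725 against 1.28 and 1.27, and chromosomes 6, 7 and X also lay lower in RTX, without overlap. Chromosome X had low shares in both, 7.86% and 7.62% in RTX and 6.57% and 6.46% in NT. The RTX replicates were farthest apart on chromosome 19, with 14.5% and 28.4%, while NT had 1.26% and 1.20% there.

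Within 2 Mb of a chromosome end, RTX covered 17.3% and 22.5% and NT 2.47% and 2.67%. Farther than 20 Mb from both ends, RTX covered 18.4% and 17.8% and NT 13.1% and 13.5%. The NT share was thus low at the ends, where the GC content was 48.8% against 39.8% in the inner part.

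Protein-coding genes were covered more in RTX than in NT, and so, by a smaller difference, was sequence outside all annotated genes. Protein-coding genes were covered to 23.2% and 23.8% in RTX and to 8.93% and 9.28% in NT. Exons had 35.6% and 36.9% against 6.31% and 6.72%, and coding sequence 34.9% and 37.8% against 5.84% and 6.12%. Within 1 kb of a transcription start, where promoters lie, RTX covered 21.5% and 25.96% and NT 1.58% and 1.72%. LncRNA genes outside protein-coding genes went the other way, with 11.99% and 11.2% in RTX and 13.2% and 13.6% in NT. Sequence outside all annotated genes had 14.4% and 14.8% in RTX and 12.7% and 12.95% in NT. The ratio to the share of the whole genome divides out the total of each library. It does not remove the part of the thresholds in which bases are kept, and it was not recomputed at a common limit. Protein-coding genes had ratios of 1.29 and 1.30 in RTX and 0.808 and 0.817 in NT. Sequence outside all annotated genes had 0.801 and 0.806 in RTX and 1.15 and 1.14 in NT. In no class did the groups overlap.

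Around transcription starts the share dipped in both groups. In windows of 5 kb averaged over all protein-coding genes, RTX replicate 1 covered 36.2% from 10 to 5 kb upstream, 29.1% in the 5 kb before the start, 28.2% in the 5 kb after it and 36.2% from 5 to 10 kb downstream. RTX replicate 2 had 43.0%, 35.2%, 33.01% and 42.1% in these windows. NT replicate 1 had 3.90%, 2.49%, 2.61% and 4.50%, and NT replicate 2 had 3.82%, 2.63%, 2.66% and 4.51%. All 4 libraries were lowest within 5 kb of the start. Within 1 kb of a start the pooled share was lower still, at 21.5% and 25.96% in RTX and 1.58% and 1.72% in NT. The coverage was smoothed by the authors, so the shape of the dip could not be resolved further.

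**Figure D3:**
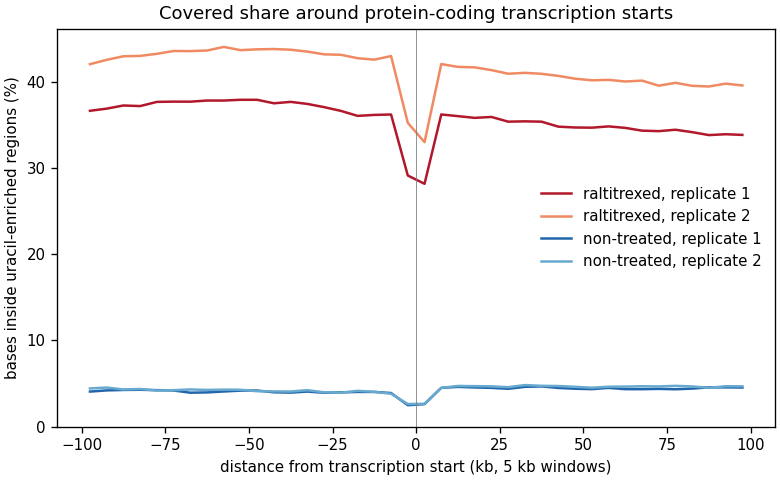
Bases inside regions (percent) in 5 kb windows from 100 kb upstream to 100 kb downstream of protein-coding transcription starts, 1 line for each of the 4 libraries. The raltitrexed lines lie between 28.2% and 44.1%, the non-treated lines between 2.49% and 4.82%, and all 4 dip within 5 kb of the start.

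Of 19970 protein-coding genes, 16952 had a region in at least 1 library and were tested over their whole span. Limma called 8830 higher after RTX, 52.1% of those tested, and 1719 lower, 10.1%. In NT, 12735 genes held no region base in either replicate, and in RTX 4937 did. The difference of mean covered shares had a median of 23.2 percentage points over all genes. Genes entirely covered in both RTX libraries and free of regions in both NT libraries numbered 496. Of the 11632 genes of at least 20 kb, 2748 were covered to at least 50% in both RTX and under 5% in both NT libraries, and 45 the other way round. With the highest regions up to 300 Mb in each library, 3740 genes were higher and 2187 lower, and 32 of the genes called higher were called the opposite way, so the balance of the calls depends on the thresholds. A replicate block gave 6808 higher and 813 lower. The higher count fell to 1924 and 1952 without NT replicate 1 or 2, and the lower count to 686 and 578 without RTX replicate 1 or 2.

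The direction went with gene length. Of genes of 20 to 50 kb, 2739 of 4840 rose and 259 fell, with 41.3% and 46.8% of their bases covered in RTX and 3.91% and 3.93% in NT. Of genes of 200 to 500 kb, 356 of 1175 rose and 378 fell. Of genes of at least 500 kb, 23 of 322 rose and 214 fell, with 3.003% and 2.12% of bases covered in RTX and 16.5% and 17.2% in NT. The longest genes were thus the class most covered without drug and least covered with it. The part of GC content in the gene calls was not tested.

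Genes of thymidylate and dUTP metabolism, the pathway raltitrexed acts on, had a median difference near that of all genes. Of 21 members, 9 rose, 1 fell, 8 passed no test and 3 had no region in any of the 4 libraries, and the median difference was 24.3 percentage points beside 23.2 over all genes. The 9 that rose are 50% of the members tested, near the 52.1% over all tested genes. TYMS, the gene of thymidylate synthase itself, had no region in any of the 4 libraries. TK1, the salvage kinase of thymidine, had 88.3% and 83.8% in RTX and none in NT (limma adjusted p = 0.00269). RRM2, the small subunit of ribonucleotide reductase, had 66.4% and 87.4% in RTX and none in NT (adjusted p = 0.00986). DUT, whose product removes dUTP, had 35.4% and 12.9% in RTX and 3.02% and 0% in NT (adjusted p = 0.0904). The gene that fell was DPYD, which breaks down pyrimidine bases and spans 917.3 kb, with 4.92% and 0.480% in RTX and 38.3% and 36.4% in NT (adjusted p = 0.0172). RRM2B, a p53-induced subunit of the reductase, had no RTX region and 53.1% and 18.9% in NT (adjusted p = 0.0511).

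Of 15 genes of antifolate transport and the folate cycle, 11 rose, none fell, 3 passed no test and 1 had no region, with a median difference of 56.5 percentage points. The higher calls are 78.6% of the members tested, beside 52.1% over all genes. Neighbouring genes can share a region, so members are not independent. SLC19A1, the reduced folate carrier that takes up raltitrexed, was covered to 11.2% and 8.02% in RTX and not in NT (adjusted p = 0.0112). FPGS, which adds the polyglutamate chain, had 46.1% and 28.0% in RTX and none in NT (adjusted p = 0.0146). SLC46A1, the proton-coupled folate transporter, had 76.1% and 69.0% (adjusted p = 0.0033), GART, an enzyme of purine synthesis, 70.7% and 62.1% (adjusted p = 0.00386), and neither had an NT region. The efflux pump gene ABCG2 had 48.0% and 66.4% in RTX and 0.0360% and 1.31% in NT (adjusted p = 0.0124). GGH, which removes polyglutamate, had no RTX region and 6.52% and 0% in NT (adjusted p = 0.368).

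**Figure D4:**
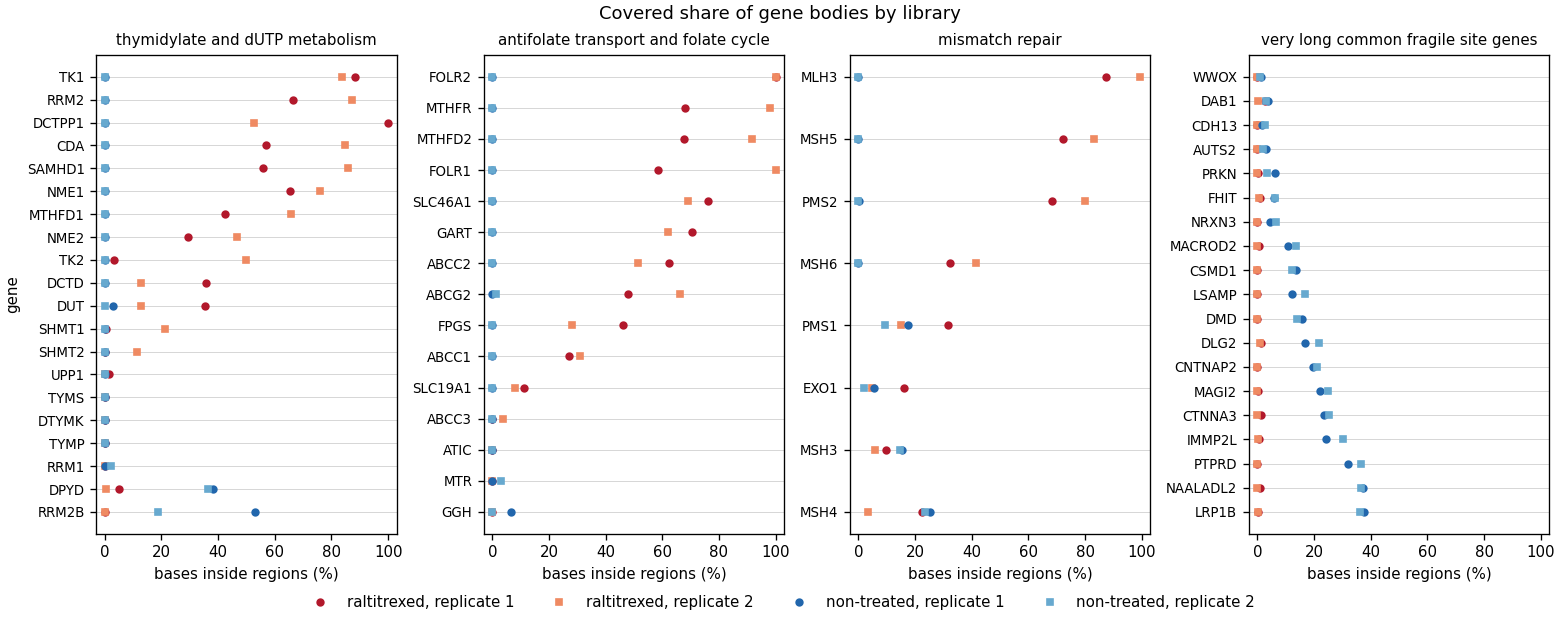
Covered share of gene bodies (percent, horizontal axes) for members of 4 gene lists (vertical axes, a few members left out), 1 point for each of the 4 libraries. In the first 3 lists most raltitrexed points lie right of the non-treated points, and in the very long genes they lie left of them.

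In uracil base excision repair, 8 of 15 genes rose, none fell, 6 passed no test and 1, LIG3, had no region, with a median difference of 42.7 percentage points. The higher calls are 57.1% of the members tested, near the 52.1% over all genes. Among the glycosylase genes, UNG, whose product UGI inhibits, had 64.6% and 63.3% in RTX and none in NT (adjusted p = 0.00253). SMUG1 had 69.7% and 100% in RTX (adjusted p = 0.031), TDG 74.0% and 54.1% (adjusted p = 0.0417) and MBD4 100% and 100% (adjusted p = 0.00267). In NT, SMUG1 had none, TDG 14.2% and 0.868%, and MBD4 0% and 1.08%. POLB, the gap-filling polymerase, had 53.8% and 91.5% in RTX and 0% and 1.20% in NT (adjusted p = 0.0328). APEX1, the endonuclease of abasic sites, had 0% and 84.1% in RTX and none in NT (adjusted p = 0.368), so the replicates disagreed.

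In MMR, 6 of 10 genes rose, none fell and 4 passed no test, with a median difference of 27.7 percentage points beside 23.2 over all genes. The higher calls are 60% of the members tested, beside 52.1% over all genes. PMS2 had 68.3% and 79.9% in RTX and 0.262% and 0% in NT (adjusted p = 0.00523). MSH6, a subunit of a complex that recognizes mispairs, had 32.4% and 41.5% in RTX and none in NT (adjusted p = 0.00619). MSH3, of the complex that recognizes larger loops, had 9.72% and 5.90% in RTX and 15.3% and 14.5% in NT (adjusted p = 0.112). PMS2 and MSH6 thus had no overlap between the groups and rose, and MSH3 was covered with and without the drug.

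Among 18 p53 target genes, 7 rose, none fell, 10 passed no test and 1 had no region, with a median difference of 30.3 percentage points. The higher calls are 41.2% of the members tested, below the 52.1% over all genes. BTG2, a growth inhibitor, had 100% and 85.4% in RTX and none in NT (adjusted p = 0.013). SESN2, a stress sensor, had 85.7% and 87.5% (adjusted p = 0.00211) and the death receptor gene TNFRSF10B 79.3% and 88.9% in RTX, with 6.14% and 0% in NT (adjusted p = 0.0125). CDKN1A, the gene of the cell cycle inhibitor p21, had 5.89% and 100% in RTX and none in NT (adjusted p = 0.263). For CDKN1A the RTX replicates thus disagreed.

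Colorectal cancer drivers had a smaller median difference than the lists above. Of 18 genes 4 rose, none fell, 12 passed no test and 2 had no region, and the median difference was 1.34 percentage points. These 4 are 25% of the members tested, below the 52.1% over all tested genes. ARID1A, a subunit of the SWI/SNF remodeling complex, had 89.1% and 91.8% in RTX and none in NT (adjusted p = 0.00219). RNF43, an inhibitor of Wnt receptors, had 87.0% and 88.7% against 0% and 2.35% (adjusted p = 0.00496). PIK3CA, the catalytic subunit of PI3 kinase, was covered in all 4 libraries, with 52.7% and 51.0% in RTX and 30.4% and 32.6% in NT (adjusted p = 0.0225). When only the highest regions up to 300 Mb a library were kept, its difference was -14.1 percentage points. APC, of the Wnt pathway, had 43.7% and 30.9% in RTX and 16.7% and 9.30% in NT (adjusted p = 0.0624).

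Of 16 genes of gut epithelial identity, 6 rose, none fell, 8 passed no test and 2 had no region, with a median difference of 30.8 percentage points. Those 6 are 42.9% of the members tested, below the 52.1% over all tested genes. CDX1, a homeobox factor of the intestine, had 100% and 87.3% in RTX (adjusted p = 0.0114), and the cadherin gene CDH17 had 98.1% and 95.3% in RTX and 6.10% and 5.66% in NT (adjusted p = 0.00295). CEACAM5 had 62.4% and 85.7% in RTX (adjusted p = 0.0115), and MYC 39.3% and 48.6% (adjusted p = 0.00543), with none in NT. LGR5, a marker of intestinal stem cells, had 34.9% and 1.71% in RTX and 7.78% and 9.21% in NT (adjusted p = 0.732).

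Of 16 housekeeping genes of glycolysis and the cytoskeleton, 10 rose, none fell, 3 passed no test and 3 had no region, with a median difference of 39.1 percentage points. Those 10 are 76.9% of the members tested, beside 52.1% over all tested genes. PKM, pyruvate kinase, had 39.3% and 61.6% in RTX and none in NT (adjusted p = 0.0137), and ENO1, enolase, 59.3% and 90.2% (adjusted p = 0.0191). ACTB, GAPDH and ACTG1 had no region in any of the 4 libraries. Expression was not measured, so its part was not tested.

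Cytosolic ribosomal protein genes, 81 in number and mostly short, gave 23 that rose, 1 that fell, 35 that passed no test and 22 without a region, with a median difference of 24.9 percentage points. Those 23 are 39.0% of the members tested, below the 52.1% over all tested genes. RPL11, RPL9, RPL32 and RPS25 were covered entirely in both RTX libraries and not in NT. RPSA was the one that fell, with 2.56% and 3.58% in NT and no RTX region (adjusted p = 0.0184). Of 69 replication-dependent histone genes, 3 rose, none fell, 17 passed no test and 49 had no region in any library. The 3 are 15% of the histone genes tested. The risen ones were H3C7 and H2BC9 in the cluster of chromosome 6 and H2AC25 on chromosome 1. In that cluster, 38 of 55 genes had no region. These genes are short, with a median length of 0.503 kb, and of all 2763 genes under 5 kb 1397 had a region in at least 1 library.

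HOX genes, which set position along the body axis, are short genes in 4 clusters. Of 39, 17 rose, none fell, 11 passed no test and 11 had no region, and no NT library covered any base of them. The 17 that rose are 60.7% of the HOX genes tested, beside 52.1% over all tested genes. The clusters were unlike each other: 7 of 11 genes rose on chromosome 7 and 7 of 10 on chromosome 17, 3 of 9 on chromosome 12, and 0 of 9 on chromosome 2, where 8 had no region. HOXA5 and HOXB13 were covered to 100% in both RTX libraries.

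Of 20 very long genes at common fragile sites, places that break under replication stress, 19 fell, none rose and 1 passed no test, and the median difference was -14.7 percentage points. The 19 are 95% of the members tested, beside 10.1% called lower over all tested genes. LRP1B had 0.295% and 0.0369% in RTX and 37.8% and 36.1% in NT (adjusted p = 0.00406), and DMD, the dystrophin gene, 0% and 0% against 15.8% and 14.1% (adjusted p = 0.00591). FHIT and WWOX, at the most cited of these sites, had low shares without drug too. FHIT had 0.745% and 0.538% in RTX and 5.92% and 6.22% in NT (adjusted p = 0.0235), and WWOX none in RTX and 1.20% and 0.781% in NT (adjusted p = 0.0427). Their median length was 1529 kb, and of all genes of at least 500 kb 214 of 322 fell.

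Of 18 genes of type II cadherins and SLITRK proteins, 10 fell, 2 rose, 4 passed no test and 2 had no region, with a median difference of -19.4 percentage points. Of the members tested, 62.5% fell and 12.5% rose, beside 10.1% and 52.1% over all tested genes. CDH19 had 82.3% and 66.5% in NT and CDH10 69.0% and 58.3%, and CDH9 had 57.2% and 52.5%, with no RTX region in any of them (adjusted p = 0.00665, 0.00463 and 0.00317). SLITRK6, which guides nerve growth in the ear, had 64.7% and 56.7% in NT and none in RTX (adjusted p = 0.00386). The 2 that rose, CDH24 and CDH22, lie on chromosomes 14 and 20, and CDH24 had 59.2% and 55.7% in RTX and none in NT (adjusted p = 0.00296).

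Olfactory receptor genes and zinc finger genes of chromosome 19 split in both directions. Over all tested genes, 52.1% rose and 10.1% fell. Of 416 olfactory receptor genes, 84 fell (32.6% of those tested), 25 rose (9.69%), 149 passed no test and 158 had no region. Those on chromosome 12, 18 in number, had a median covered share of 0% in both RTX libraries and 51.8% and 59.2% in NT, and 8 of them fell and none rose. OR6C76 was covered to 100% in both NT libraries and OR2C1, on chromosome 16, to 100% in both RTX libraries. Of 249 zinc finger genes of chromosome 19, 27 rose (18.2% of those tested), 29 fell (19.6%), 92 passed no test and 101 had no region. Their bases were covered to 4.84% and 5.97% in RTX, below the 14.5% and 28.4% of their chromosome. ZNF541 had 99.4% and 98.7% in RTX and none in NT (adjusted p = 0.00153), and ZNF85 none in RTX and 28.8% and 29.8% in NT (adjusted p = 0.00367).

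Among genes of at least 20 kb, many shared the largest rise after rounding to whole percentage points, and the 10 longest of them were taken. They went from no region to at least 99.3% coverage. RNF157, an E3 ubiquitin ligase gene of 98 kb on chromosome 17 (chr17:76142465-76240493), had 100% and 99.3% in RTX and none in NT (adjusted p = 0.00227). ARHGEF33 on chromosome 2 (chr2:38889875-38975454), PIWIL2, a germline gene of small RNA silencing, on chromosome 8, and CACNA1S, the calcium channel gene of skeletal muscle, on chromosome 1 (chr1:201039512-201112451) had 100% in both RTX libraries and none in NT (adjusted p = 0.000899 each). ZNF589, C6orf89, STK38 and PDCD11 had the same values, while CCDC13 had 99.6% and 100% and DRC1, a gene of motile cilia, 100% and 99.6%, with none in NT. Where neither group had any spread, the adjusted p rests on limma's moderation over all features. PDCD11 is a gene of ribosome assembly. Since these 10 were picked from the tie by length and expression was not measured, their mix of functions was not tested.

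The 10 with the largest fall lost nearly all coverage. FAM76B on chromosome 11 (chr11:95768953-95790409) had 2.33% and 0% in RTX and 78.1% and 83.2% in NT (adjusted p = 0.00601). SI, which encodes the brush border enzyme sucrase-isomaltase, on chromosome 3 (chr3:164978898-165078496), had 1.71% and 0% in RTX and 75.6% and 77.5% in NT (adjusted p = 0.00499). COL11A1, a collagen gene of cartilage of 232.4 kb on chromosome 1 (chr1:102876467-103108872), had none in RTX and 74.5% and 72.7% in NT (adjusted p = 0.00228). PCDH17, a protocadherin gene on chromosome 13, had none in RTX and 70.4% and 69.8% in NT (adjusted p = 0.00229). RGS21, ALX1, CDH19, CFHR4, CYLC2 and BCHE made up the rest, with NT shares from 63.9% to 89.0% and RTX shares of at most 6.51%.

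A small group of genes was covered with and without the drug. Of the genes of at least 20 kb, 126 had at least 20% in each of the 4 libraries. The lipase gene LIPJ on chromosome 10 had 72.3% and 74.2% in RTX and 73.9% and 85.4% in NT (adjusted p = 0.368). EXOC1, of the exocyst complex that tethers vesicles, had 89.4% and 89.5% in RTX and 51.9% and 45.3% in NT and rose (adjusted p = 0.00733). PDCD4 and ECT2 had at least 39.8% in each library. These were named after their values were seen.

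The RTX replicates differed more by gene than the NT replicates did. The absolute gap between replicates had a median of 9.46 percentage points over tested genes in RTX and 0 in NT. Genes without a region in either NT replicate, 12735 of all 19970, hold the NT median at 0. Over 100 kb bins it was the other way round, with a median gap of 0.5 points in RTX and 1.8 in NT. The median share over tested bins was 1.05% in RTX and 5.45% in NT, so many bins had little RTX coverage to differ in. Pooled over the bins of a GC class, the RTX replicates were farther apart than the NT replicates in every class. At 50% GC and over the shares were 33.5% and 48.5% in RTX and 0.114% and 0.106% in NT. By gene, the gap was over 50 points for 1276 genes in RTX and 92 in NT. Replicate 2 was the higher one for 964 of the 1276 genes, of which 217 lie on chromosome 19, and replicate 1 for 312. Which sequencing platform each library was run on is not given in the sources used here, so its part was not tested.

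The same treatment of HCT116 cells without the added chromosome, RTX_UGI_HCT116 against NT_UGI_HCT116 with 2 replicates each, served to compare the RTX effect by MMR status. A limma interaction term over the 8 libraries called 42 of 27701 bins, 0.152%, with 20 larger and 22 smaller in the MMR proficient cells. These bins had limma adjusted p-values of 0.0438 to 0.0499, all near the limit of 0.05. The count moved on leaving out any 1 library. Such a fit leaves a group with a lone library, so it cannot show whether the calls rest on single libraries. Over genes, the term called 822 of 17859, 4.6%, and this count was not rerun with a library left out. The added chromosome and MMR status cannot be told apart in this design.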

How the data were processed

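U-DNA-Seq compares sequencing of uracil-containing DNA bound by a ΔUNG sensor with input DNA. The authors aligned reads to GRCh38 with BWA 0.7.17-r1194, processed them with SAMtools 1.9-50 and Picard, computed log2 coverage of enriched over input with deepTools 3.2.1, smoothed it, and deposited regions above a log2 threshold that they tuned for each library, so the total length is no free result. Columns 1 to 3 and the log2 value in column 5, which has no heading, were used. The region files hold no read numbers, the study's own table of them was not used here, and the platform of each library is not given in the sources used here, so depth is unknown here.

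The covered share was the percentage of known bases of a 100 kb bin or a chromosome inside regions. For a gene (GENCODE protein-coding, chromosomes 1 to 22 and X) it was the percentage of all bases of its span. Bins and genes with a region in at least 1 of the 4 libraries were fitted with limma 3.58.1 (R 4.3.3) on the arcsine square root of the share, with trend and robust moderation and Benjamini-Hochberg adjustment over all features tested, and called at an adjusted p under 0.05. Every adjusted p in the text is limma's. The p-values set the difference between groups against the spread between 2 independent replicates a group, moderated by limma over all features. Where both replicates of a group are at 0% or at 100%, that group shows no spread. Where this holds for both groups, the p-value rests on the moderation alone. The script was tested on simulated data. Tables and figures were made with Python 3.11.15, NumPy 2.4.6, pandas 2.3.3 and matplotlib 3.10.9.

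The comparison, its members and the gene lists were chosen with earlier results of these data known. Genes named were those of 15 lists, the 10 largest rises and 10 largest falls among called genes of at least 20 kb without overlap between the groups, the 3 longest genes of the 3 longest runs in each direction, and genes in the longest and highest region shared by both replicates. Alternatives were a common log2 limit of 0.32, the highest regions up to 300 Mb a library, regions of at least 5 kb, autosomes, no transformation, a replicate block, a mean share of at least 5%, bins of 1 Mb, gene spans with 10 kb flanks, absence of overlap, the authors' merged files, and leaving out each library. Mock pull-down samples and other drugs were not used here, and a few members of the lists are counted but not reported singly.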

Additional observations from a re-analysis of the deposited data

Results flagged for a closer look

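Each value below is a difference of differences in covered share, RTX minus NT in the MMR proficient cells less RTX minus NT in the MMR deficient cells, in percentage points, and each passed the limma interaction term at an adjusted p under 0.05. The term called 42 bins of 100 kb. The largest difference, -105.85, was in a bin on chromosome 4 starting at 30600001, where RTX covered none in the MMR proficient cells and 100% and 92.6% in the MMR deficient cells. Bins on chromosome 12 gave -86.7 (start 88800001) and -83.15 (start 75700001).

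Among genes, limma called 822 of 17859, 4.6%, with 173 differences above 0 and 649 below, and these calls were not rerun under the alternatives used for bins. Among those of at least 20 kb, SCOC had 88.4, with 93.6% and 87.0% after RTX in the MMR proficient cells and 5.37% and 9.34% in the MMR deficient cells. TNS4 had -86.0 and ABCC3, an efflux transporter gene, -85.9. In the folate and thymidylate lists, SHMT2 had -85.1, FPGS -62.9, NME1 -29.4 and TK1 -13.9.

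Of the housekeeping genes, TUBB had -94.8, TPI1 -47.6, ACTB -34.0 and GAPDH -31.1. KRT8, a keratin gene of simple epithelia, had -67.2, CDH24 -42.5 and SESN2 -13.4. FPGS, NME1, TK1, TPI1, CDH24 and SESN2 were covered to 100% in both RTX replicates of the MMR deficient cells, a ceiling without spread. ZMAT3, a p53 target, had 10.9. These genes are thus mostly ones where RTX regions covered more of the gene in the MMR deficient cells, and the part of thresholds and depth, which differ between libraries or are unknown, was not tested.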

How the results depend on the processing

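Counts of called bins and genes moved with several alternatives. Keeping the highest regions up to 300 Mb a library gave 4834 higher bins and 3740 higher genes, and keeping regions of at least 5 kb gave 6702 lower bins and 894 lower genes. The authors' merged files, without a test, gave 3198 lower genes. Leaving out 1 library gave 411 to 6648 higher bins, 3525 to 11159 lower bins, 1924 to 9919 higher genes and 578 to 1689 lower genes. The higher counts were lowest without an NT replicate and the lower counts without an RTX replicate, and the lone library was assumed to vary like the other group. Same-numbered replicates were not paired (correlation of deviations -0.0384 over bins and -0.0254 over genes). A fit with a replicate block gave 9488 higher and 12444 lower bins, 6808 higher and 813 lower genes, and 0 interaction bins in limma (4337 at an unadjusted p under 0.05).

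The interaction count, 42, moved to 432 with the highest regions up to 300 Mb, 219 with regions of at least 5 kb, 577 without transformation, 250 with a mean share of at least 5%, 62 in bins of 1 Mb and 10737 by absence of overlap without a test. Leaving out 1 library gave 0 to 1866. The merged files were not run for it. The log2 difference in N50, 1.39, was 1.69 at a common log2 limit of 0.32, 2.35 at 300 Mb and 1.903 in merged files, with 1.15 to 1.64 on leaving out 1 library. The log2 difference in median length, -0.06, became 1.85, 2.26 and 0.44 at the log2 limit, at 300 Mb and at 5 kb, with -0.12 to 0 on leaving out 1 library. The difference in mean log2 value, -0.015, was 0.0326 at 300 Mb and -0.0356 at 5 kb, with -0.0285 to -0.00137 on leaving out 1 library. The GC difference, 9.99 points, was 10.8 at 5 kb and 9.29 to 10.7 on leaving out 1 library. Of 112 called genes followed singly, 63 and 64 lost their call without NT replicate 1 or 2, 27 and 28 without RTX replicate 1 or 2, 24 with the replicate block, and 10 without transformation. At 300 Mb, 21 of 101 lost it, and PGK1 (-1.17) and PIK3CA (-14.1) turned negative. At 5 kb 16 of 108 and at the log2 limit 10 of 111 lost it. The cause was not tested for any of these. Depth is unknown, so no limit from it can be given.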

Other observations

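Regions on contigs other than chromosomes 1 to 22 and X numbered 203 and 210 in the RTX replicates and 353 and 372 in the NT replicates. Their highest log2 value was 1.10 and 0.95 in RTX and 3.42 and 2.85 in NT.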
